A study of Mus musculus with 8 samples.

Results

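The genes described here act on retinoids, the family of vitamin A and its derivatives. They were chosen by symbol: Bco1, Rbp2, Lrat, Rbp4, Ttr, Stra6, Dhrs3 and Aldh1a1, which are 8 of the 52195 genes in the deposited table. All 8 were found in it, and 7 of them reached a level of at least 1 FPKM (fragments per kilobase of gene model, scaled to the library's size) in at least 2 libraries, which was the condition for a test. Stra6 did not, and its values are given without entering the counts of genes tested.

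Bulk RNA-seq was performed on kidney, lung, liver and small intestine of mice, with 2 libraries for each of the 4 tissues and 8 in all. The labels give the strain as C57BL/6 and the age as 6 to 10 weeks for every library, and the study's methods add that the animals were male C57BL/6J mice, that the libraries of a tissue were biological replicates, and that all 4 tissues were taken from each animal. Whether libraries of different tissues with the same replicate number came from the same mouse is not given in the sources used here. Whole excised tissue was ground, polyadenylated mRNA was captured, and libraries were made by tagmentation of double-stranded cDNA. The study used these profiles to test how the cell-type makeup of a tissue can be estimated from bulk data. Each value is therefore an average over all cells of an organ piece.

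Vitamin A enters the body as retinyl esters and as provitamin A carotenoids, which enterocytes cleave, reduce and esterify for transport in chylomicrons. The liver takes up these esters, keeps most of the body's reserve in its stellate cells, and releases retinol into plasma bound to a carrier protein. In target cells retinol is oxidized in 2 steps, first to retinal and then to retinoic acid, the ligand of nuclear receptors, and enzymes of esterification, reduction and hydroxylation take retinoids out of this path.

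The libraries held between 9164187 and 21444675 reads counted on genes, so that levels far below 1 FPKM rest on few reads. The labelled tissues carried their own markers. In the limma test described with the differences, all 7 hepatocyte markers were called higher in liver, all 7 enterocyte markers in small intestine, all 6 proximal tubule markers in kidney, and all 6 alveolar type 2 and all 4 club cell markers in lung. Both libraries of the named tissue lay above the other 6 for 7 of 7, 6 of 7, 5 of 6, 4 of 6 and 3 of 4 of these, in the same order. Napsa, an alveolar type 2 marker, was higher in kidney (416.0 and 517.6 FPKM) than in lung (98.8 and 90.8 FPKM), as was Cldn10 among the club cell markers (61.3 and 77.4 FPKM against 8.42 and 8.07 FPKM). Markers of other cell types were unequal between tissues. Summed over each list, pancreatic acinar markers reached 2699 and 1237 FPKM in the small intestine libraries and at most 77.2 FPKM elsewhere, and cardiac muscle markers 232.8 and 238.6 FPKM in lung and at most 9.20 FPKM elsewhere. Enteroendocrine markers summed to 296.1 and 170.6 FPKM in small intestine and at most 4.56 FPKM elsewhere, mesothelial markers to 83.7 and 53.4 FPKM in lung and at most 4.15 FPKM elsewhere, and adrenal cortex markers to at most 2.07 FPKM in any library.

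The carotenoid and retinol steps of the gut are represented by Bco1 and Rbp2. Bco1 encodes beta-carotene oxygenase 1, which cleaves beta-carotene into retinal. Rbp2 encodes cellular retinol-binding protein II, the cytosolic carrier of retinol and retinal in enterocytes. The gene model of Rbp2 lies at chr9:98486115-98509781 on the plus strand and that of Bco1 at chr8:117095854-117133720 on the plus strand (GRCm38, the build of the files), both protein coding and with no exon shared with another gene. Their upstream sequences are shown because these genes act on adjacent substrates in the same epithelium, while Rbp2 had the highest tissue mean of the 8 genes and Bco1 stayed below 1.5 FPKM. Each is the 250 bases before a RefSeq start site (GRCm38.p6), read along the gene and written 5′ to 3′, and capitals mark the letters of a TATA box (TATAAA) or of a half-site of retinoic acid receptors (AGGTCA or AGTTCA), each searched on both strands.

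Rbp2, chr9:98490287-98490536: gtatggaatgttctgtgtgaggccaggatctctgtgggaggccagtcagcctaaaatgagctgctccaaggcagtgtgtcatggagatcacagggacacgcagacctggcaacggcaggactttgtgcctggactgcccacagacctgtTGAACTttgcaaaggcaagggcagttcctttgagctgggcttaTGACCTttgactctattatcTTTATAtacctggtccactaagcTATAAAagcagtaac
Bco1, chr8:117095615-117095864: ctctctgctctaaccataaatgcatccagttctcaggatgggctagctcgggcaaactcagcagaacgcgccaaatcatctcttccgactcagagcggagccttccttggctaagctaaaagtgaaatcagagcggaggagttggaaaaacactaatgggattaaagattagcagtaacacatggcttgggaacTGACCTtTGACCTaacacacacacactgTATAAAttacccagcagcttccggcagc

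In the Rbp2 window TATAAA began 15 bases before the start on the plus strand and 38 bases before it on the minus strand, and AGGTCA stood on the minus strand 58 bases and AGTTCA 101 bases before the start. The Bco1 window held TATAAA 28 bases before the start and AGGTCA on the minus strand at 56 and 49 bases before it, so that these half-sites lay 1 base apart in the same orientation. Of 32851 RefSeq windows of this length, 12.4% held TATAAA, 14% AGGTCA and 11.8% AGTTCA on either strand. A match of letters is a description of the window and not a measured binding site. The Rbp2 window lies inside the gene model given above, in the first intron of its longer GENCODE M21 transcripts and directly before the start of a shorter one. The last bases of the Bco1 window are already exonic in the GENCODE M21 model.

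Rbp2 had the highest tissue mean of the 8 genes. Its level was 5505 and 3181 FPKM in the small intestine libraries, 5.44 and 6.54 FPKM in liver, 9.47 and 2.43 FPKM in lung, and 1.65 and 4.86 FPKM in kidney. Both small intestine libraries lay far above the other 6, among which lung overlapped kidney and liver, while kidney lay below liver. Rbp2 ranked 14 and 27 among all 52195 genes in the small intestine libraries and made up 0.803% and 0.481% of their summed FPKM. The mean in small intestine was 724.5 times that in liver, the second tissue in order. On the log2(FPKM + 1) scale small intestine exceeded the mean of the other 3 tissues by 9.58 (SE 0.46, limma, Benjamini-Hochberg adjusted p = 2.6e-06). Liver, lung and kidney did not differ from their neighbours in the order beyond their spread (limma, adjusted p = 0.741 for liver against lung and 0.364 for lung against kidney). In bulk tissue, fewer cells of a type and less RNA per cell cannot be told apart, here or in any value that follows.

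The low Rbp2 levels outside the gut were close to those of enterocyte markers there. As a percentage of the small intestine mean, Rbp2 stood at 0.0380% and 0.112% in kidney, 0.218% and 0.0559% in lung, and 0.125% and 0.151% in liver. The median of the 7 enterocyte markers, on the same scale, was 0.0453% and 0.110% in kidney, 0.248% and 0.0498% in lung, and 0.119% and 0.205% in liver. Apob, an enterocyte marker that the liver also makes, was above its small intestine mean there, at 179.2% and 136.1%. Library by library, Rbp2 was high where this median was high, including the difference of 3.91 times between the 2 lung libraries and of 2.95 times between the 2 kidney libraries. Fabp2, an intestinal fatty acid-binding protein and the enterocyte marker nearest to Rbp2 in abundance, was 0.812 and 1.93 times as abundant in FPKM as Rbp2 in small intestine, between 1.03 and 1.27 times in kidney and lung, and 8.72 and 8.42 times in liver. The part of intestinal RNA in the low levels was not tested.

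Bco1 was low in all 8 libraries. Liver held 1.46 and 1.49 FPKM, small intestine 1.34 and 1.25 FPKM, kidney 0.880 and 0.772 FPKM, and lung 0.322 and 0.253 FPKM. These values rest on 34 and 39 reads in liver, 32 and 36 in small intestine, 48 and 34 in kidney, and 8 in each lung library. The libraries of different tissues did not overlap, and lung was lowest. Kidney exceeded lung by 0.50 (SE 0.12, limma, adjusted p = 0.00768) on the log2(FPKM + 1) scale, whereas the interval between liver and small intestine (0.11, SE 0.12, limma, adjusted p = 0.499) and that between small intestine and kidney (0.33, SE 0.12, limma, adjusted p = 0.0628) were within the spread. On that scale a gene near 1 FPKM cannot show its full fold change. The ratio of the FPKM means was 1.13 between liver and small intestine and 5.12 between liver and lung, and a limma-voom fit to recovered reads, chosen after the values were seen, gave log2 differences from the mean of the other 3 tissues of 1.12 in liver and -1.97 in lung (adjusted p = 0.0104 and 0.00142).

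Bco2, the mitochondrial paralog that cleaves carotenoids off centre, followed another order. It reached 27.8 and 29.1 FPKM in small intestine, 5.62 and 6.91 FPKM in liver, 4.93 and 4.23 FPKM in kidney, and 0.822 and 0.874 FPKM in lung. In FPKM it was 20.7 and 23.3 times as abundant as Bco1 in the small intestine libraries and between 2.55 and 5.60 times in the other 6. Small intestine and lung were the tissues called for Bco2, at 2.81 and -2.52 on the log2 scale. Isx, the gut transcription factor that is known to repress Bco1 and Scarb1 in response to retinoic acid, was at 38.7 and 62.1 FPKM in small intestine and at most 0.114 FPKM in any other library.

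Lrat encodes lecithin retinol acyltransferase, which turns retinol into the retinyl esters of chylomicrons and of stellate cell stores. Its model lies at chr3:82892579-82903973 on the minus strand. The lung libraries held 12.4 and 7.19 FPKM, small intestine 5.77 and 4.80 FPKM, liver 2.28 and 1.72 FPKM, and kidney 0.654 and 0.453 FPKM. The ranges of the 4 tissues did not overlap, lung being highest and kidney lowest. Lung exceeded the mean of the other 3 by 1.77 (SE 0.21, limma, adjusted p = 0.000165) and kidney lay below it by a log2 difference of -1.91 (SE 0.21, limma, adjusted p = 0.000223). The first of these calls depends on how the libraries are scaled: after median-of-ratios scaling the lung difference was 0.82, below the limit of 1. All 3 neighbouring pairs were called as deposited, but lung against small intestine (0.74, SE 0.26, limma, adjusted p = 0.0392) was called in only 11 of 21 alternative settings and stood at 0.05 after median-of-ratios scaling. Leaving out lung replicate 1 alone reduced it to 0.39 (limma, adjusted p = 0.251).

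Markers of the cells known to store retinoids were compared with Lrat from tissue to tissue. The summed FPKM of 10 hepatic stellate cell markers was 68.7 and 67.5 in liver, 194.6 and 186.9 in lung, 83.5 and 72.9 in small intestine, and 25.6 and 16.9 in kidney. These sums did not overlap between tissues, and their order (lung, small intestine, liver, kidney) was that of Lrat. Most of the sum in lung and small intestine came from Des and Dcn, which other mesenchymal cells also express. Colec11, a collectin of stellate cells, was at 11.9 and 10.6 FPKM in liver and at most 0.805 FPKM elsewhere. Lhx2 was at 0.273 and 0.617 FPKM in liver, on 11 and 28 reads, and was listed at 0 in kidney and small intestine. Reln also had its highest mean in liver. The means of Ecm1, Pdgfrb, Hgf, Des and Dcn were highest in lung, and those of Hand2 and Ngfr in small intestine. The 6 markers of lung fibroblasts and lipofibroblasts summed to 1470 and 1646 FPKM in lung, between 415.2 and 545.9 FPKM in kidney and liver, and 36.7 and 31.8 FPKM in small intestine. The liver sum came mostly from Inmt (464.2 and 380.3 FPKM, against 1.202 and 0.993 FPKM in small intestine) and Plin2 (80.3 and 81.4 FPKM, against 27.0 and 23.3 FPKM), whereas Tcf21, Npnt, Itga8 and Fgf10 had higher means in small intestine than in liver. The part of any of these cell types in the Lrat level was not tested.

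The other enzymes that make retinyl esters were distributed differently. Dgat1, an acyltransferase that esterifies both diacylglycerol and retinol, was at 317.8 and 319.9 FPKM in small intestine and between 6.57 and 14.3 FPKM in the other 6 libraries. Its small intestine difference was 4.97 on the log2 scale (SE 0.11, limma, adjusted p = 1.88e-07). Among lipases and carboxylesterases that can hydrolyse retinyl esters, Ces1g and Lipc were called higher in liver (3.58 and 5.91), Ces1f in kidney and liver (2.48 and 1.77) and Lpl in kidney and lung (3.32 and 1.72, the latter 0.67 after median-of-ratios scaling). Pnlip, the pancreatic lipase, was at 333.4 and 169.2 FPKM in small intestine and at most 0.621 FPKM elsewhere. It stands among the pancreatic acinar markers, all 7 of which were called higher in those libraries, and it was on this list as an enzyme that hydrolyses dietary retinyl esters in the gut lumen.

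Retinol leaves the liver bound to the product of Rbp4, retinol-binding protein 4, which circulates in complex with transthyretin, the product of Ttr. The Rbp4 model lies at chr19:38116629-38125281 on the minus strand. RefSeq gives 2 start sites for it, and the window of the inner start is shown because it holds motif matches while that of the outer start held none. Here capitals mark TATAAA or the GC box GGGCGG.

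Rbp4, chr19:38124812-38125061: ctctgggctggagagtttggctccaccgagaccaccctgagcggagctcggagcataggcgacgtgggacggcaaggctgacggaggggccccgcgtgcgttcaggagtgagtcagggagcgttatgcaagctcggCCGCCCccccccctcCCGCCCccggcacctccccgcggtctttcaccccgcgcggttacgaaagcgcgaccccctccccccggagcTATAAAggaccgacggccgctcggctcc

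It held TATAAA 28 bases before the start and GGGCGG on the minus strand at 114 and 99 bases before it, and 70.8% of its bases were G or C, against a median of 52.4% over all windows. GGGCGG stood in 32.7% of the 32851 windows. Part of the window is exonic in longer GENCODE M21 transcripts of Rbp4. Of letters searched for hepatocyte nuclear factors, the HNF1 half-site GTTAAT and the longer HNF4 motif CAAAGTCCA did not stand in it. They were in 6.43% and 0.384% of all windows.

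Liver held nearly all of the Rbp4 RNA. The libraries gave 1618 and 1652 FPKM in liver, 17.6 and 12.5 FPKM in lung, 2.22 and 2.52 FPKM in small intestine, and 0.935 and 2.63 FPKM in kidney. Liver and lung stood clear of the rest and of each other, while small intestine lay within the range of the 2 kidney libraries. Liver exceeded the mean of the other 3 tissues by 8.30 on the log2 scale (SE 0.24, limma, adjusted p = 1.79e-07), and its mean was 108.7 times that of lung. Lung exceeded small intestine by 2.23 (SE 0.29, limma, adjusted p = 0.000364), and small intestine and kidney did not differ beyond their spread (0.35, SE 0.29, limma, adjusted p = 0.376).

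Ttr also led in liver but had a different second tissue. It was at 3798 and 3699 FPKM in liver, 52.6 and 94.0 FPKM in kidney, 9.24 and 6.34 FPKM in lung, and 6.66 and 3.33 FPKM in small intestine. Kidney was clearly above lung and small intestine, whose libraries overlapped. The liver difference was 7.94 (SE 0.28, limma, adjusted p = 4.88e-07) and the liver mean was 51.1 times the kidney mean. Kidney exceeded lung by 3.04 (SE 0.35, limma, adjusted p = 0.000144), whereas lung and small intestine could not be separated (0.59, SE 0.35, limma, adjusted p = 0.172). As kidney is compared with a mean that includes liver, its own difference was 0.32 and was not called (limma, adjusted p = 0.366).

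The proportion of the 2 plasma carriers therefore varied between tissues. In FPKM, Ttr was 2.35 and 2.24 times as abundant as Rbp4 in the liver libraries, 56.3 and 35.8 times in kidney, 0.525 and 0.508 times in lung, and 2.99 and 1.32 times in small intestine. The liver ratio agreed closely between the replicates, and the kidney and lung ratios lay on either side of it. Levels were also set against liver markers. Relative to the liver mean, Rbp4 stood at 1.08% and 0.763% in the lung libraries, above each of the 7 hepatocyte markers, whose highest values there were 0.780% and 0.456%. Ttr in lung, at 0.247% and 0.169%, was close to the median of these markers, 0.265% and 0.162%.

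In kidney the positions were exchanged. Ttr stood at 1.40% and 2.51% of its liver mean, above 6 of the 7 hepatocyte markers, whose medians were 0.0485% and 0.179%. The exception was Cyp2e1, a cytochrome P450 that the kidney also expresses, at 22.5% and 18.3%. Rbp4 in kidney, at 0.0572% and 0.161%, was close to the marker median. In small intestine both carriers, at 0.136% and 0.154% for Rbp4 and 0.178% and 0.0889% for Ttr, were above marker medians of 0.0468% and 0.0497%.

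**Figure D1:**
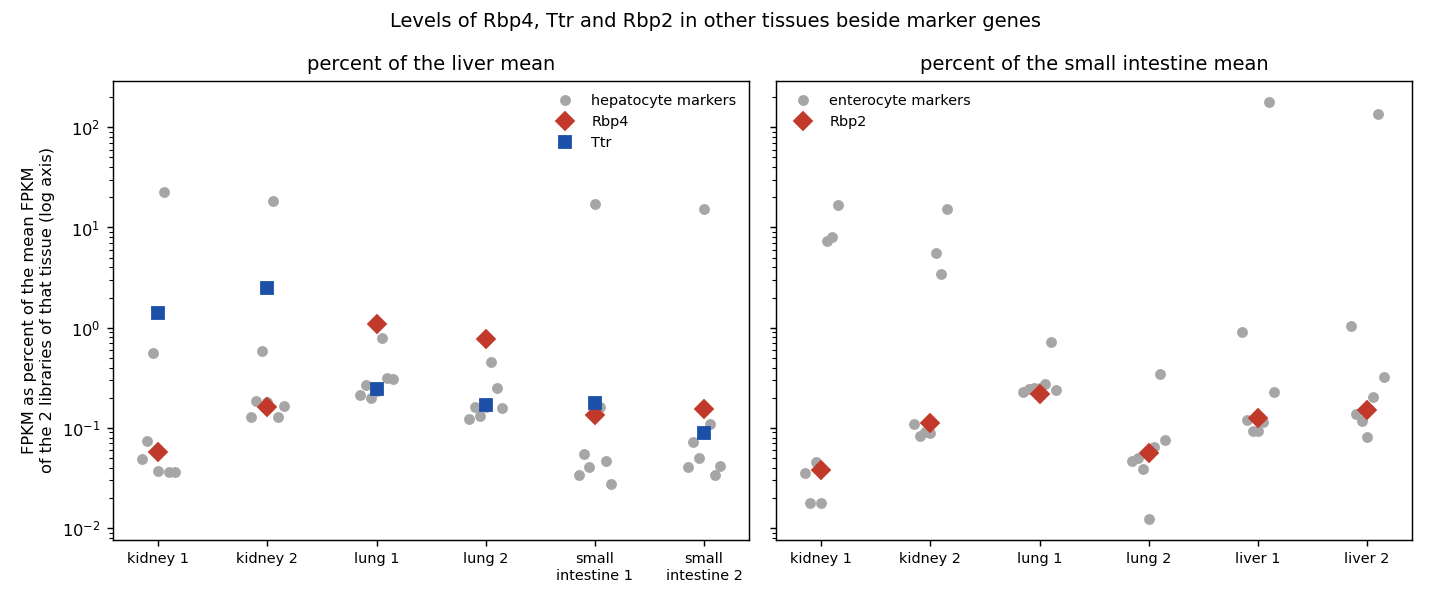
Level of Rbp4, Ttr and Rbp2 outside the tissue of highest level, in percent of the mean FPKM of that tissue (y axis, logarithmic), by library (x axis). Grey points are 7 hepatocyte markers in the left panel and 7 enterocyte markers in the right panel. Rbp4 lies above all grey points in both lung libraries (1.08% and 0.763%), and Ttr above 6 of 7 in kidney (1.40% and 2.51%). Rbp2 stays between 0.0380% and 0.218%. It lies among the grey points except in lung replicate 1, where its 0.218% is just below the lowest of them (0.226%).

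Other cell types known to express these carriers differed between the same libraries. The 7 adipocyte markers summed to 141.1 and 83.3 FPKM in lung, 61.6 and 74.8 FPKM in small intestine, 6.40 and 8.85 FPKM in kidney, and 4.37 and 2.001 FPKM in liver. Lep was listed at 0 in 5 libraries, among them both of kidney and of liver. Most of the sum in small intestine came from Cidec, a lipid droplet protein, at 32.2 and 50.01 FPKM there and 14.5 and 10.4 FPKM in lung. Adipoq, the adipocyte hormone adiponectin, was at 8.90 and 5.19 FPKM in lung and 4.18 and 2.43 FPKM in small intestine, and Cfd at 103.2 and 59.0 FPKM and at 16.5 and 16.6 FPKM. The 7 pancreatic islet markers summed to 69.9 and 43.7 FPKM in small intestine and at most 1.79 FPKM elsewhere, almost all of it from Gcg and Sst, which enteroendocrine cells also express. Among the insulin genes, Ins1 was at 0.210 FPKM and 0 in small intestine and Ins2 at 0.733 and 0.135 FPKM, with Ins2 at 0 in the other 6 libraries. Iapp, the amyloid peptide of beta cells, was at 0.987 and 0.725 FPKM in small intestine and at most 0.105 FPKM elsewhere, and these values rest on 9 and 8 reads. Ttr, which islet cells are known to express, had its lowest mean in small intestine, whose libraries overlapped those of lung. The part of adipocytes or islets in these values was not tested.

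Stra6 encodes the cell surface receptor that takes up retinol from retinol-binding protein. Its model lies at chr9:58063788-58153996 on the plus strand. It was at 0.492 and 0.442 FPKM in lung, 0.352 and 0.208 FPKM in kidney, 0.0183 and 0.0606 FPKM in small intestine, and was listed at 0 in both liver libraries. The values rest on 28 and 32 reads in lung, 44 and 21 in kidney, and 1 and 4 in small intestine, so that small intestine was at or near the limit of detection. For liver a count of 0 allows up to 3 reads, or 0.0562 and 0.0499 FPKM, which lies below each lung and kidney value; this limit covers counting error only. Without the filter on low values the log2(FPKM + 1) difference from the mean of the other 3 tissues was 0.42 in lung and -0.32 in liver (limma, adjusted p = 0.00126 and 0.00471), both below the limit of 1.

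Its paralog Stra6l, also known as RBP receptor 2, had a different order. It was at 12.1 and 17.8 FPKM in liver, 1.40 and 0.857 FPKM in kidney, 1.07 and 1.01 FPKM in small intestine, and 0.161 and 0.118 FPKM in lung. Liver was called higher for Stra6l (3.20, SE 0.18, limma, adjusted p = 6.15e-06) and lung lower (-1.84). The endocytic receptors that recover filtered retinol-binding protein, Lrp2 and Cubn with their adaptor Dab2, were called higher in kidney, by 4.80, 2.37 and 3.32 on the log2 scale. Lrp2 differed between the kidney libraries, at 65.5 and 26.1 FPKM, both far above the highest value elsewhere, 2.08 FPKM. Cubn was at 14.7 and 5.90 FPKM in kidney and was also called higher in small intestine (1.78), at 5.20 and 8.497 FPKM, so that these tissues overlapped.

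Dhrs3, a retinal reductase that turns retinal back into retinol, and Aldh1a1, a dehydrogenase that oxidizes retinal to retinoic acid, compete for the same substrate. The Dhrs3 model lies at chr4:144892827-144928209 on the plus strand and that of Aldh1a1 at chr19:20492715-20643465 on the plus strand. Dhrs3 was the most evenly distributed of the 8 genes as deposited, at 35.0 and 34.1 FPKM in kidney, 35.1 and 30.5 FPKM in lung, 31.7 and 32.6 FPKM in liver, and 14.7 and 10.6 FPKM in small intestine. Lung overlapped kidney and liver, kidney lay above liver, and both small intestine libraries lay below the other 6. Small intestine was called lower by a log2 difference of -1.34 (SE 0.14, limma, adjusted p = 0.000155), and liver exceeded it by 1.30 (SE 0.17, limma, adjusted p = 0.000513). Kidney, lung and liver were not separated as deposited (limma, adjusted p = 0.713 for kidney against lung and 0.908 for lung against liver). Their order depends on scaling: after median-of-ratios scaling the difference of lung from the mean of the other 3 turned from 0.42 to -0.72, and lung fell below liver by 1.58 on the log2 scale (limma, adjusted p = 0.000628).

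Aldh1a1 was high in 3 tissues and low in kidney. The levels were 257.5 and 218.8 FPKM in liver, 221.0 and 216.3 FPKM in lung, 120.7 and 120.0 FPKM in small intestine, and 1.46 and 1.35 FPKM in kidney. Liver and lung overlapped, small intestine lay below both, and kidney lay far below all of them. Kidney differed by -6.27 on the log2 scale (SE 0.11, limma, adjusted p = 5.6e-07), which in size matched or exceeded the difference of 99.8% of all genes tested in kidney. Liver, lung and small intestine were each called higher (2.57, 2.42 and 1.28). The small intestine difference fell to 0.91, below the limit of 1, after quantile normalization. The step from lung to small intestine was 0.86 (SE 0.13, limma, adjusted p = 0.000913), and that from liver to lung was within the spread (0.12, SE 0.13, limma, adjusted p = 0.437). These steps depend on scaling: after median-of-ratios scaling liver exceeded lung by 1.77 (limma, adjusted p = 0.000208) and lung and small intestine were 0.07 apart (limma, adjusted p = 0.809), and with the same sum in each library liver lay below lung by a log2 difference of -0.14 (limma, adjusted p = 0.416).

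Aldh1a1 has a close copy, Aldh1a7, so that the assignment of reads matters. Their coding sequences are 1506 bases each and differ at 126 positions, which is an identity of 91.6%. Of all stretches of 31 bases in the annotated Aldh1a1 exons (4937 bases, coding and non-coding), 5.70% also occurred in Aldh1a7. These made up 13.8% of the stretches of Aldh1a7. Most reads of this length or more can be told apart if they fall evenly over the exons. The 90 coding bases from position 310 to 399 are shown because they hold 19 of the differences, which capitals mark (GENCODE M21 transcripts, positions counted from the start codon).

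Aldh1a1: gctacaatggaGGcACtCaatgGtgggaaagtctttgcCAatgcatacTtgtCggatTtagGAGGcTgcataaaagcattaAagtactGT
Aldh1a7: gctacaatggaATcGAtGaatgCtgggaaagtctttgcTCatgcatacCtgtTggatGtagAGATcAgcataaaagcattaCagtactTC

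Aldh1a7 was at 101.7 and 86.5 FPKM in liver, 53.4 and 46.0 FPKM in lung, 25.6 and 27.8 FPKM in small intestine, and 5.71 and 4.17 FPKM in kidney. In FPKM, Aldh1a1 was between 2.53 and 4.71 times as abundant as Aldh1a7 in liver, lung and small intestine, and 0.257 and 0.323 times as abundant in kidney. These ratios depend on the lengths of the gene models, by which FPKM divides. Kidney was low for both copies and was the only tissue in which Aldh1a7 exceeded Aldh1a1. How the study's counting treated reads that match both genes is not given in the sources used here, so the split between them is uncertain.

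Aldh8a1, Aldh1a2 and Aldh1a3, listed as retinal dehydrogenases, differed in their tissues. Aldh8a1, which is known to act on 9-cis-retinal, was at 82.2 and 83.6 FPKM in kidney and 61.8 and 68.9 FPKM in liver, and at most 0.397 FPKM in lung and small intestine. Kidney and liver were called higher for it (4.25 and 3.80). Aldh1a2 was called higher in lung (6.15 and 6.26 FPKM) and in small intestine (5.05 and 3.35 FPKM), and Aldh1a3 in small intestine (5.83 and 4.49 FPKM). For Aldh1a2 the lung call (1.76) was lost after quantile normalization, and the small intestine call (1.11) with a pseudocount of 0.01, with the same sum in each library and without small intestine replicate 1. In kidney Aldh1a2 and Aldh1a3 were each below 1 FPKM in both libraries.

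**Figure D2:**
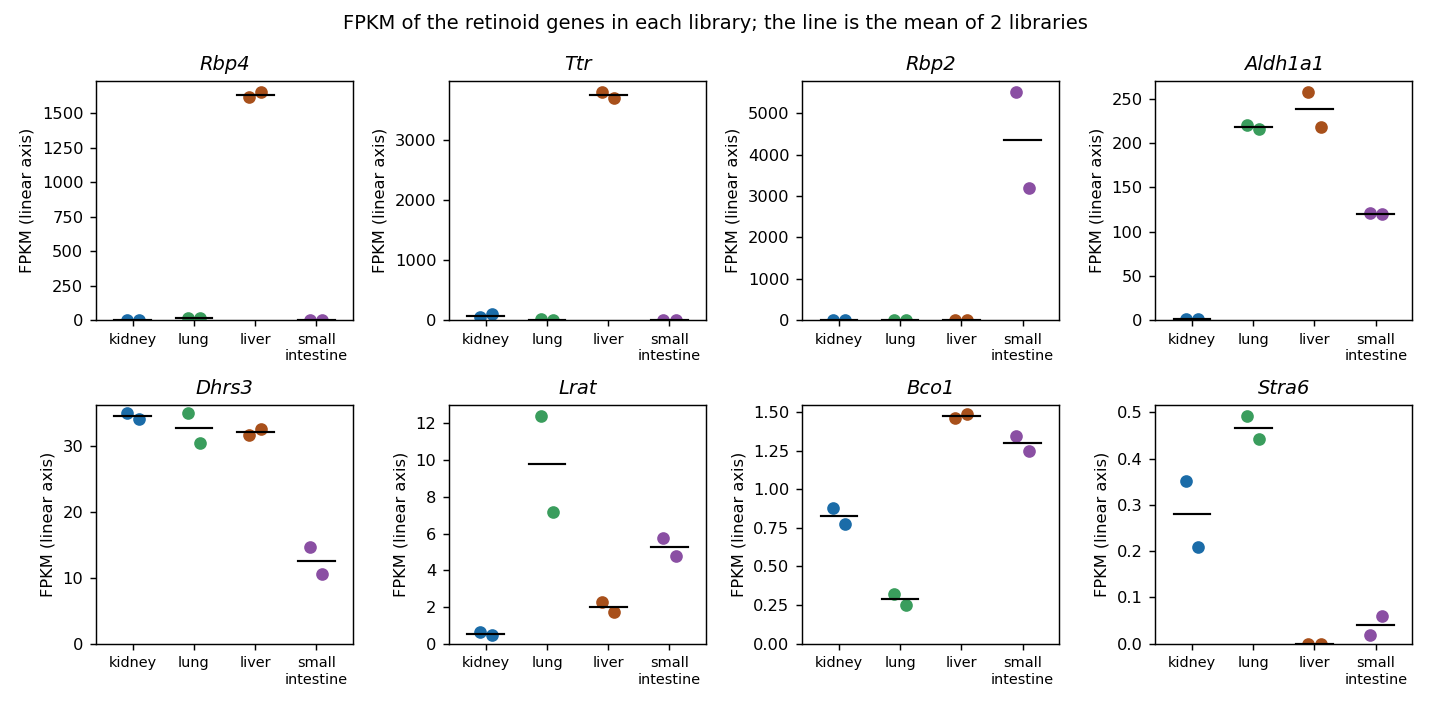
FPKM (y axes, linear and starting at 0) of the 8 retinoid genes in the 2 libraries of each tissue (x axes); each point is a library and the black line is the mean. Rbp4 and Ttr stand out in liver, Rbp2 in small intestine (5505 and 3181 FPKM), Aldh1a1 is near 0 in kidney (1.46 and 1.35 FPKM), and Bco1 and Stra6 stay below 1.5 FPKM throughout.

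Each tissue was then compared with the mean of the other 3 for all genes at once, to ask which retinoid genes set a tissue apart. Differences were taken on log2(FPKM + 1), tested with limma over 16328 genes, and called at a Benjamini-Hochberg adjusted p below 0.05 with an absolute log2 difference above 1. In kidney, 0 of the 7 tested retinoid genes were called higher and 4 lower (Aldh1a1, Rbp4, Rbp2 and Lrat), where 8.65% of all genes were called higher, 16.1% lower and 24.7% in either direction. Dhrs3 was the 1 gene higher there at an unadjusted p below 0.05. Its difference of 0.53 also passed the threshold on adjusted p (limma, adjusted p = 0.0157) but not that on size. A limma-voom fit to reads also called 0 of 7 higher. In lung, 2 were called higher (Aldh1a1 and Lrat) and 2 lower (Ttr and Rbp2), against 40.7% and 8.26% of all genes, or 49% in either direction. Liver had 3 higher (Rbp4, Ttr and Aldh1a1) and 1 lower (Rbp2), against 6.56% and 32.7%, or 39.2% in either direction. Small intestine had 2 higher (Rbp2 and Aldh1a1) and 3 lower (Ttr, Rbp4 and Dhrs3), against 13.7% and 11.3%, or 25% in either direction. As deposited, Bco1 was called in no tissue on this scale, with differences of 0.50 in liver, 0.35 in small intestine and -0.76 in lung that passed the threshold on p (limma, adjusted p = 0.00296, 0.0208 and 0.000284) but not that on size.

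The shares of all genes were lopsided in lung and liver. As deposited, the median of all tested genes stood at 0.82 for lung, -0.72 for liver, -0.34 for kidney and -0.01 for small intestine. Median-of-ratios scaling brought these medians to -0.02, -0.14, -0.11 and -0.05. The largest differences of the retinoid genes kept their direction and their call under this scaling. Rbp4 in liver went from 8.30 to 9.30, Ttr in liver from 7.94 to 8.91, Rbp2 in small intestine from 9.58 to 9.41, and Aldh1a1 in kidney from -6.27 to -6.06. Aldh1a1 in lung went from 2.42 to 1.27, and Rbp4 in lung from -0.63, which was not called, to -1.73, which was. Bco1 passed both limits in liver (1.03, limma, adjusted p = 9.81e-05) and lung (-1.10, limma, adjusted p = 5.36e-05), and Dhrs3 in liver went from 0.39 to 1.38 (limma, adjusted p = 0.000525). Over all genes this scaling gave 14.6% called higher and 16% lower in lung, 12.3% and 13.9% in liver, 11.5% and 12.1% in kidney, and 13% and 11.6% in small intestine.

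**Figure D3:**
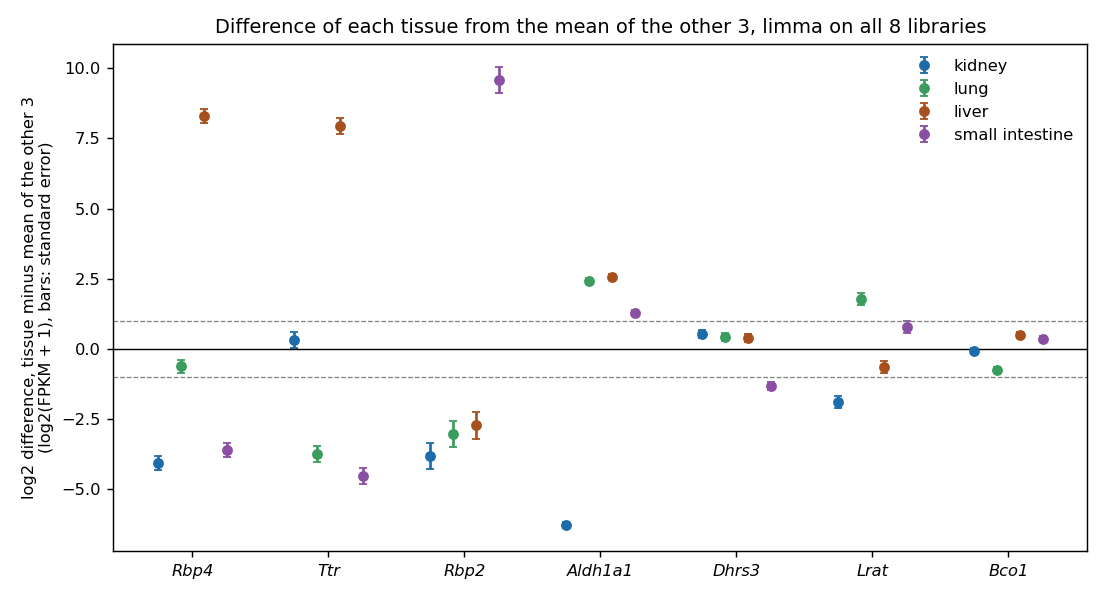
Difference of each tissue from the mean of the other 3 on the log2(FPKM + 1) scale (y axis) for the 7 tested retinoid genes (x axis); points are limma estimates from all 8 libraries, bars their standard errors, and dashed lines the limit of 1. Rbp2 in small intestine (9.58), Rbp4 and Ttr in liver (8.30 and 7.94) and Aldh1a1 in kidney (-6.27) lie farthest from 0, and all 4 Bco1 points lie between the dashed lines.

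The order of the tissues was also read pair by pair, from neighbouring tissues in the order of mean FPKM. Of 21 such pairs in the 7 tested genes, 12 differed at a Benjamini-Hochberg adjusted p below 0.05 with no limit on size. Over all genes tested, the same rule called 72.6% for kidney against lung, 38.3% for kidney against liver, 46.8% for kidney against small intestine, 80.9% for lung against liver, 63.5% for lung against small intestine and 56.8% for liver against small intestine. The 3 pairs of Lrat were the least stable of the called pairs, at 11, 17 and 16 of 21 alternative settings. The other 9 were called in all 21, except for 1 setting in Aldh1a1 for lung against small intestine.

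The wider retinoid pathway was taken from lists made for this work, which hold 64 further genes, of which 52 were tested. Liver had 19 of the 52 called higher and 19 lower, small intestine 15 and 15, lung 16 and 19, and kidney 9 and 21. The shares of all genes called higher and lower were 6.56% and 32.7% for liver, 13.7% and 11.3% for small intestine, 40.7% and 8.26% for lung, and 8.65% and 16.1% for kidney. After median-of-ratios scaling these counts were 21 and 14 for liver, 14 and 16 for small intestine, 6 and 25 for lung, and 11 and 18 for kidney, beside 12.3% and 13.9%, 13% and 11.6%, 14.6% and 16%, and 11.5% and 12.1% of all genes. Of the 16 called higher in lung, 10 were then no longer called: Aldh1a7, Lpl, Lipe, Tgm2, Ces1d, Hic1, Rarres2, Scarb1, Crabp1 and Rara. The median of their differences was -0.47 for liver, 0.13 for small intestine, -0.26 for lung and -0.64 for kidney, beside the medians over all genes given with the scaling.

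Among retinol and retinal oxidoreductases, 15 of 18 were tested, and liver had 5 called higher and 2 lower, against 2 and 5 in kidney, 1 and 6 in lung, and 4 and 2 in small intestine. Of all genes, 6.56% were higher and 32.7% lower in liver, 8.65% and 16.1% in kidney, 40.7% and 8.26% in lung, and 13.7% and 11.3% in small intestine. Rdh7, a retinol dehydrogenase, reached 752 and 880 FPKM in liver and 183 and 150 FPKM in small intestine, with at most 2.20 FPKM in kidney and lung. Adh4 and Adh1, alcohol dehydrogenases that accept retinol, were called higher in liver (4.58 and 2.53). Kidney led for Rdh16 (25.2 and 17.4 FPKM, difference 2.75) and for Dhrs4 (109 and 102 FPKM, difference 1.38), both reductases or dehydrogenases of the same family. Akr1b7, an aldo-keto reductase, was called higher in small intestine (4.87).

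Of 6 intracellular carriers, 5 were tested, with 4 called lower in kidney and 3 higher in lung, where 16.1% and 40.7% of all genes were called so. Of these, Crabp1 in lung (1.04) was at 0.62 and not called after median-of-ratios scaling, and was also not called after quantile normalization or without lung replicate 1. Rbp7 was called higher in small intestine (3.57), at 15.9 and 13.2 FPKM, and Fabp5, which also carries retinoic acid, in lung (3.43). Crabp2 was below 0.1 FPKM in all 8 libraries.

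Among enzymes that clear retinoic acid, Cyp26a1 was at 11.5 and 11.9 FPKM in liver and at most 0.395 FPKM elsewhere, and was called higher in liver (3.47, SE 0.14, limma, adjusted p = 9.4e-07). Cyp26b1 varied within tissues, from 0.140 to 1.87 FPKM in kidney and from 0.851 to 3.81 FPKM in liver, and was called in no tissue (1.03 in lung, limma, adjusted p = 0.0853). Of the 6 receptors, 4 were tested. Rarg and Rara were called higher in lung (3.06 and 1.80, of which Rara was at 0.80 after median-of-ratios scaling), and Rxra in liver (1.22). Genes known to respond to retinoic acid had 10 of 15 members tested, with 7 called lower in kidney and no other call there, 5 called higher and 2 lower in lung, 1 and 5 in small intestine, and 3 and 3 in liver, to be read beside the same shares of all genes. These lists share genes with each other and with the 8 described here.

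**Figure D4:**
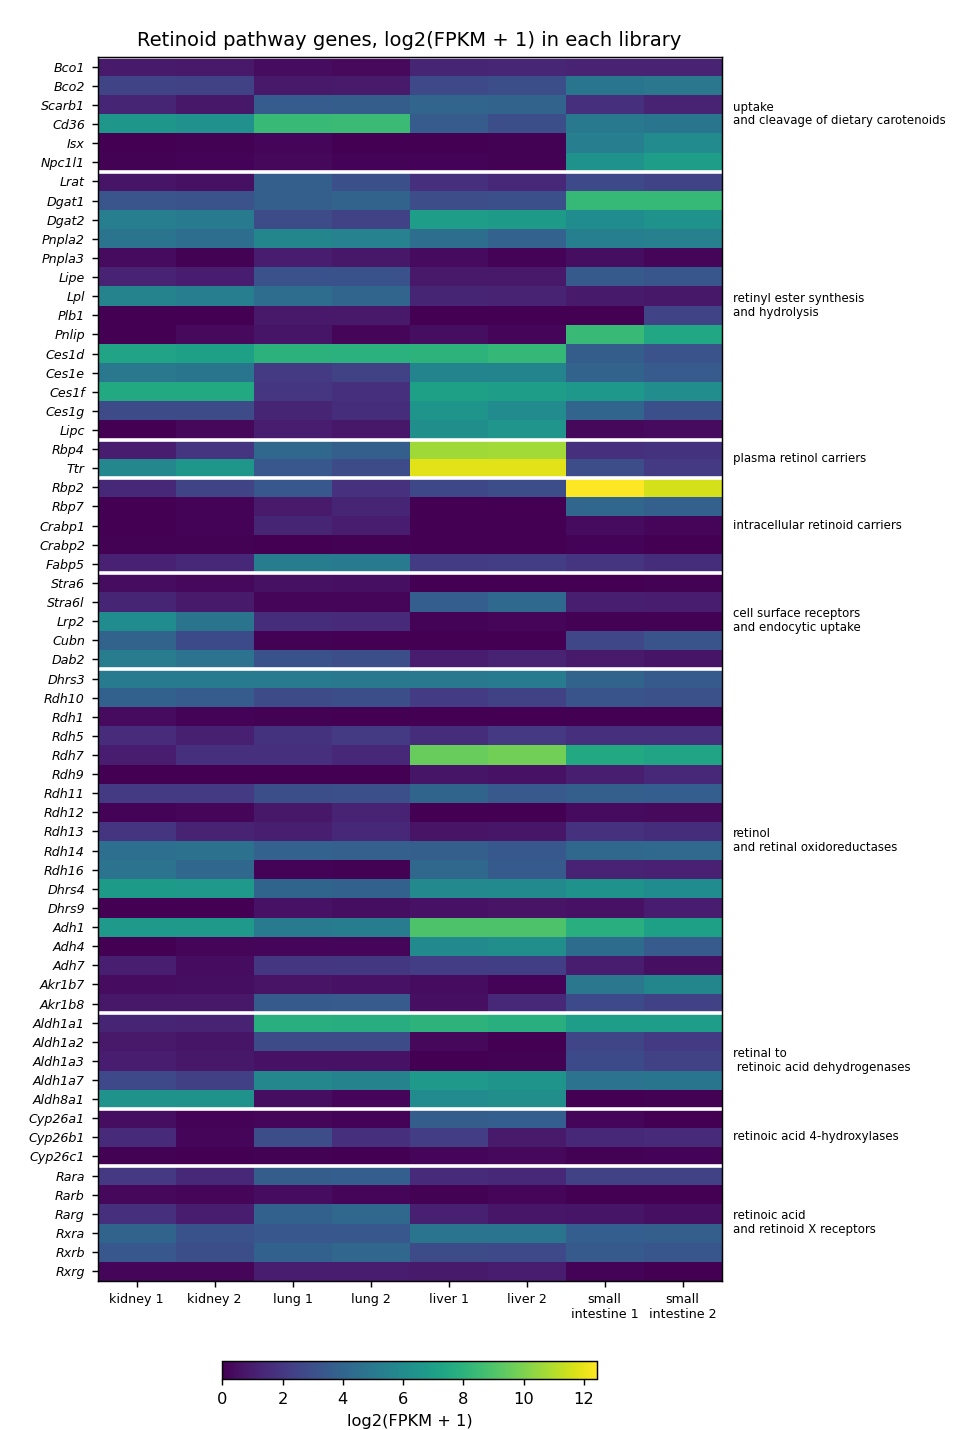
Level of retinoid pathway genes, log2(FPKM + 1) (colour), in each of the 8 libraries (columns), grouped by role with white lines between groups (rows). The brightest cells are Rbp2 in small intestine and Rbp4, Ttr and Rdh7 in liver; kidney is dark for Aldh1a1 and lighter for Aldh8a1 and Lrp2.

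Lastly, all 16328 tested genes were ranked by the Pearson correlation of their log2(FPKM + 1) with each retinoid gene over the 8 libraries. These are descriptions, since the 8 points are 4 tissues of 2 libraries each and share their scaling. Rbp2 was followed most closely by Reg3b (r = 0.999), Zg16 and AY761184, and 87 genes had r above 0.99 with it. For Rbp4 these were Gm4951 (r = 0.998), Trf and Mst1, with 34 genes above 0.99, and for Ttr they were Pzp (r = 0.995) and Slc38a3, with 7 genes. Genes with a graded pattern had fewer such neighbours. Lrat was closest to Ms4a6d (r = 0.995), Aif1 and Clec4n, Bco1 to Osgin1 (r = 0.997), Slc25a1 and Dgat2, Aldh1a1 to AW112010 (r = 0.989), Lrp1 and B2m, and Dhrs3 to Cpq (r = 0.979), Nicn1 and Tmem38b. The last 2 had 0 genes above 0.99.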

How the data were processed

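The authors selected reads by sample index, mapped them to GRCm38 with STAR (version 2.5.3a in the submitters' processing notes) and deposited FPKM values made with DESeq2. The counting program and its use of strand are not given in the sources used here. Reads behind the FPKM values were recovered from GENCODE M21 exon lengths: 94.5% to 96.1% of values under 50 reads were whole within 0.02, and 99.3% of genes matched 1 model. Values were tested as log2(FPKM + 1), for genes that reached 1 FPKM in 2 or more libraries, in limma 3.58.1 (lmFit, eBayes with a trend; R 4.3.3), all 8 libraries sharing 1 estimate of spread, with Benjamini-Hochberg adjustment over 16328 genes. Other values used Python 3.11.15, pandas 2.3.3 and numpy 2.4.6. Promoter windows came from RefSeq (GRCm38.p6), in which 7 of the 8 genes matched by symbol; 1 gene's position and sequence, and the values of 2 other genes, are not reported here. The fit was tested on simulated data. The 8 genes, the pathway lists and the cell type markers were chosen with earlier results of these data known. Named pathway genes were drawn mainly from those called in a tissue, largest first, up to 4 per list and tissue, and those with a mean of 10 FPKM or more. Paralogs of the 8 and the 3 genes most correlated with each were added. Not every gene that met these conditions is described. Alternatives changed the pseudocount, filter, scaling, limma settings, call limit, replicate block and libraries included, and limma-voom on recovered reads was added after the data were seen.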

Additional observations from a re-analysis of the deposited data

How the results depend on the processing

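Each difference and count was recomputed under 21 alternatives. The liver calls of Rbp4 and Ttr, the small intestine call of Rbp2 and the kidney call of Aldh1a1 were made under all of them. With no limit on size, 7 of 7 genes were called in each of lung, liver and small intestine, in place of 4, 4 and 5. In kidney 5 were called, in place of 4. The share of all genes under this rule is not given, so these counts do not set the retinoid genes apart. Between pairs of tissues, 38.3% to 80.9% of all genes were called without a limit on size. Leaving out 1 library at a time gave 4 genes called in kidney, lung and liver and 5 in small intestine, and between 9 and 12 neighbouring pairs. For the pathway lists, the same step gave 28 to 31 genes called in kidney, 33 to 37 in lung, 37 to 40 in liver and 29 to 31 in small intestine. Directions turned for small differences: Bco1 in kidney was 0.00733 with a pseudocount of 0.01 and 0.0293 after quantile normalization; Lrat in liver was 0.17 and Dhrs3 in lung -0.72 after median-of-ratios scaling, and 0.14 and -0.0751 after quantile normalization; Ttr in kidney was -0.0940 without kidney replicate 2, and lay between that and 0.731 over all single omissions. Lrat in lung (0.82 and 0.86) fell below the limit under those scalings, and Aldh1a1 in small intestine (0.91) under the second. The cause was not tested.

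Replicate numbers could not be shown to pair the libraries: the sources used here do not say whether a number marks 1 mouse across tissues, and the correlation of the deviations of libraries with the same number lay from -0.22 to 0.05 between tissues. With the replicate number as a block, 4, 4, 4 and 5 genes were called in kidney, lung, liver and small intestine, 30, 36, 38 and 30 pathway genes, and 12 neighbouring pairs. With 2 libraries a tissue, small differences could not be resolved, and depth limits Stra6 and Bco1, which rest on at most 48 reads.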

Other observations

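Plb1, which encodes phospholipase B1, a brush border enzyme that hydrolyses retinyl esters, was singled out after its values were seen. It was at 0.00916 and 4.84 FPKM in the small intestine libraries, 0.773 and 0.801 FPKM in lung, 0 in both kidney libraries, and 0 and 0.00831 FPKM in liver. Small intestine replicate 2 was the highest of the 8 and the other was near 0, and the gene did not reach the level required for a test. Npc1l1, a cholesterol transporter of the brush border that was listed with carotenoid uptake, was at 83.0 and 121 FPKM in the same libraries and at most 0.183 FPKM elsewhere.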
